A study of Mus musculus with 2 samples.

Results

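The genes described here encode CTCF, its germ-line paralog and the core and regulators of cohesin. They were chosen by name as 10 genome folding factors (Ctcf, Ctcfl, Smc1a, Smc3, Rad21, Stag1, Stag2, Nipbl, Wapl and Pds5a), and all 10 were found in the gene tables of both libraries, among 43346 annotated genes of which 21474 were protein coding. Polyadenylated RNA of MEL cells, an immortalized mouse erythroleukemia line arrested at a red cell precursor stage, was sequenced from single ends in 2 biological replicates of 1 group. No treatment, genotype or time point was compared, and both replicates come from the same line, so they report on that line rather than on different animals. A cell line can drift in culture, and the labels give neither age nor sex for it.

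Cohesin is a protein ring formed by SMC1A, SMC3 and the kleisin RAD21, to which one of the paired subunits STAG1 or STAG2 binds. NIPBL loads the ring onto chromatin and drives loop extrusion, whereas WAPL, aided by PDS5 proteins, releases it. CTCF is a zinc finger protein that binds DNA in an oriented way and stops extruding cohesin, which places loop anchors and domain borders. CTCFL, also called BORIS, shares its zinc fingers and is known from the male germ line.

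Expected counts on genes, the estimated reads per gene, came to 67735380 in replicate 1 and 79923143 in replicate 2, so that 3 reads make 4.43e-06% and 3.75e-06% of a library. The cells matched their label: 13 of 14 erythroid markers lay at a TPM (a level per transcript length, scaled to the same total in every library) of at least 1 in both replicates, with summed TPM of 4975 and 6809, and the exception was the anion exchanger gene Slc4a1 at 0.48 and 0.26. Of the myeloid markers 0 of 8 and of the lymphoid markers 0 of 7 reached that level in both replicates, with summed TPM of 0.37 and 0.64 and of 0.14 and 0.50. Of the fibroblast and endothelial markers 1 of 8 did, Pdgfrb at 1.14 and 1.64, with a summed TPM of 1.65 and 2.26.

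Of the 10 genes, 9 lay at a TPM of at least 1 in both replicates, and the same 9 at 10 or more. Of all protein-coding genes, 46.8% reached 1 and 31.4% reached 10 in both. The median of the mean TPM was 67.0 over the 10 genes (85.7 in replicate 1 and 48.4 in replicate 2) and 0.49 over all protein-coding genes. Together they summed to a TPM of 1500.5 and 808.5, and to 0.410% and 0.233% of expected counts. An exact two-sided permutation test that flips signs over 2 replicates cannot give a p below 0.5, so levels are given with their spread and no test. In bulk RNA, fewer cells that express a gene and less RNA per cell cannot be told apart.

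The ring subunits stood highest. Rad21 (ENSMUSG00000022314.9, chr15:51962240-51991747, minus strand, mm10), which encodes the kleisin that closes the ring and is cut by separase at anaphase, had a TPM of 553.9 and 351.3 (452.6 ± 143.3, SD, n = 2) from 90862 and 73602 expected counts. It stood at rank 191 and 330 among the protein-coding genes. Smc1a (ENSMUSG00000041133.7, chrX:152016428-152062694, plus strand), one of the coiled-coil ATPases of the ring, had a TPM of 292.1 and 132.3 (212.2 ± 113.0, SD, n = 2). Smc3 (ENSMUSG00000024974.10, chr19:53600398-53645833, plus strand), its partner ATPase and the subunit acetylated by ESCO enzymes, had a TPM of 222.7 and 89.6 (156.2 ± 94.1, SD, n = 2). Rad21 lay above both other ring genes in each replicate, and its lower value exceeded the higher value of Smc1a.

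The boundary factor and the release factor followed at nearly one level when all transcripts were summed. Ctcf (ENSMUSG00000005698.11, chr8:105636568-105682922, plus strand) had a TPM of 97.95 and 65.40 (81.7 ± 23.0, SD, n = 2). Wapl (ENSMUSG00000041408.12, chr14:34673928-34747983, plus strand) had a TPM of 98.05 and 60.66 (79.4 ± 26.4, SD, n = 2). The order of these 2 genes changed between the replicates. Transcripts with a complete coding sequence are protein-coding models not marked as cut short at either end. Over these alone, Ctcf had a TPM of 74.42 and 48.53 and Wapl had 78.00 and 27.47. The Wapl mean was then 52.7, below that of Pds5a. Pds5a (ENSMUSG00000029202.9, chr5:65605721-65698273, minus strand), whose protein docks WAPL on the ring and also counteracts it when SMC3 is acetylated, had a TPM of 73.35 and 36.12 (54.7 ± 26.3, SD, n = 2).

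The loader and the STAG subunits were lower. Nipbl (ENSMUSG00000022141.6, chr15:8290617-8444463, minus strand) had a TPM of 65.12 and 28.22 (46.7 ± 26.1, SD, n = 2), and its order with Stag1 changed between the replicates. Stag1 (ENSMUSG00000037286.11, chr9:100597798-100959375, plus strand) had a TPM of 58.48 and 31.29 (44.9 ± 19.2, SD, n = 2). Stag2 (ENSMUSG00000025862.10, chrX:42149317-42277185, plus strand), an X-linked gene whose human counterpart is often mutated in cancer, had a TPM of 38.70 and 13.64 (26.2 ± 17.7, SD, n = 2). Of these 3 genes, Stag2 was lowest in both replicates, although its replicate 1 value exceeded the replicate 2 values of Nipbl and Stag1.

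Ctcfl (ENSMUSG00000070495.7, chr2:173093609-173119525, minus strand) was the exception, at a TPM of 0.12 and 0.09 from 17 expected counts in each replicate (95% exact Poisson interval 9.90 to 27.2, for counting error only). Among neighbours in the order of mean TPM, the replicate ranges were separate only between Rad21 and Smc1a and between Stag2 and Ctcfl. Between the other neighbours they overlapped.

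**Figure D1:**
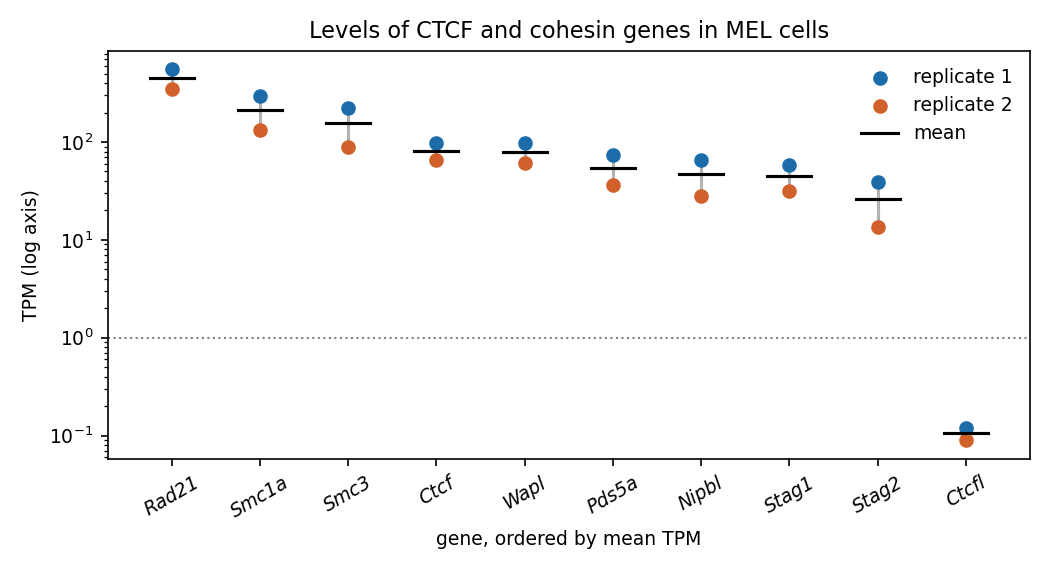
TPM of each gene on a log axis in replicate 1 (blue) and replicate 2 (orange), with the mean as a bar and a dotted line at a TPM of 1. Rad21 leads at 553.9 and 351.3, every gene is lower in replicate 2, and Ctcfl lies at 0.12 and 0.09.

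Ratios between genes were taken within each library and called larger than the replicate spread where the sign was shared by the libraries and the mean exceeded 1.31 on the log2 scale (2.48-fold), the 95th percentile of the absolute difference between replicates over protein-coding genes with a mean TPM of at least 1. Of 13 pairs, 6 passed. Rad21 exceeded Smc3 by log2 TPM ratios of 1.31 and 1.97 (1.64 ± 0.46, SD, n = 2). Over expected counts without length correction its mean of 1.26 did not pass the limit of that scale, 2.21. Ctcf lay below Rad21 by nearly the same ratio in both libraries, -2.50 and -2.42 (-2.46 ± 0.05, SD, n = 2). The other 4 set a gene that MEL cells express against its germ-line counterpart: Ctcf over Ctcfl at 8.61, Smc1a over Smc1b at 10.87, Rad21 over Rec8 at 8.40 and Stag2 over Stag3 at 7.22. The values of Ctcf over Ctcfl, Smc1a over Smc1b and Stag2 over Stag3 lean on the pseudocount of 0.1, since these germ-line genes lay near or at 0. Rad21 over Rec8 moved less, to 8.51 with a pseudocount of 0.01 and 7.63 with 1.

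The ring and its regulators were closer to one another. Rad21 exceeded Smc1a by 0.92 and 1.41, and Smc1a exceeded Smc3 by 0.39 and 0.56, on the log2 TPM scale. The order of Smc1a and Smc3 turned in replicate 1 over protein-coding transcripts (-0.28 and 0.32) and over expected counts (-0.07 and 0.31). Nipbl lay below Wapl at -0.59 and -1.10, and Pds5a lay below Wapl at -0.42 and -0.75. Over transcripts with a complete coding sequence, Nipbl over Wapl was -0.26 and 0.04, and Pds5a over Wapl was -0.09 and 0.39. Pds5a and its paralog Pds5b, at a TPM of 60.17 and 32.21, differed by a log2 ratio of 0.29 and 0.16. None of these means passed the limit of 1.31. Nipbl over Mau2, the gene of its loader partner, gave 2.11 in replicate 1 and 0.24 in replicate 2, since Nipbl was lower and Mau2 (15.05 and 23.85) higher in the second library. Their GC content differs, at 42.4% for Nipbl and 53.0% for Mau2. By counts, their log2 ratios of replicate 2 over replicate 1 were -1.20 and 0.67. With the trend on GC content removed, as described below, they were -0.31 and 0.35.

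The ratio of Stag1 to Stag2 was above 1 in both libraries when all transcripts were summed, at 1.51-fold and 2.28-fold (log2 0.59 and 1.19, mean 0.89 ± 0.42, SD, n = 2), which did not pass the limit of 1.31. Stag1 made 60.2% and 69.6% of the summed TPM of the pair. The pair together came to 17.5% and 12.8% of the TPM of Rad21. The ratio depended on which transcripts were counted. Over transcripts with a complete coding sequence, meaning protein-coding models not marked as cut short at either end, Stag1 had a TPM of 34.03 and 12.76 and Stag2 had 37.54 and 12.71. The log2 ratio was then -0.14 and 0.01 (mean -0.07 ± 0.10, SD, n = 2), so that the Stag1 excess was not present in that sum. Over all protein-coding models the mean was 0.66, and over expected counts without correction for length it was 0.33.

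**Figure D2:**
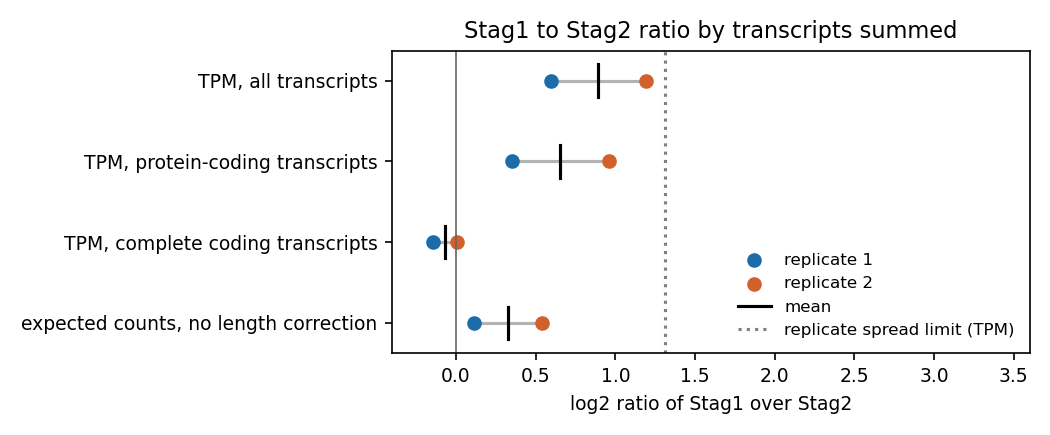
Log2 ratio of Stag1 over Stag2 (x axis) in replicate 1 (blue) and replicate 2 (orange), with the mean as a bar, for 4 ways of summing; the dotted line marks the replicate spread limit of 1.31. The means run from 0.89 over all transcripts to -0.07 over complete coding transcripts.

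The sums differ by the transcripts they hold. Complete coding transcripts held 97.0% and 93.2% of the TPM of Stag2 but 58.2% and 40.8% of that of Stag1, which has 17 listed transcripts. The largest Stag1 share belonged to Stag1-206 (32.6% and 32.1%), followed in replicate 1 by Stag1-201 (25.6% and 8.66%). Stag1-211, an incomplete model of 853 nt, took 24.8% and 24.0% from 540 and 358 expected counts. Stag1-214, another incomplete model, was at 0 in replicate 1 and at 16.9% in replicate 2. For a short model few reads make a large TPM, and reads within shared exons are divided between models by the estimate.

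Both STAG genes carry an alternative coding exon of 111 nt near the 3′ end, present in Stag1-206 and Stag2-203 and absent from Stag1-201 and Stag2-201. The exons are shown because the main transcripts of each gene differ by them. They are read from the GENCODE transcript sequences of build GRCm38 on the plus strand, at chr9:100953486-100953596 for Stag1 and chrX:42266366-42266476 for Stag2, with capitals at positions where both hold the same base (51 of 111, or 45.9%).

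Stag1 exon: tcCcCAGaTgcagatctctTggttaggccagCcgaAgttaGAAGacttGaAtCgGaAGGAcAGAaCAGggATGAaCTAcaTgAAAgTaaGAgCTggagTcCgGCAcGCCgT

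Stag2 exon: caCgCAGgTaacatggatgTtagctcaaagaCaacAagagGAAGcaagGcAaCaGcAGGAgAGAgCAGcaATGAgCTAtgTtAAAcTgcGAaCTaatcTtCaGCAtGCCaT

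Among complete coding transcripts, those with the exon held 56.0% and 78.8% of the TPM of Stag1 (67.4% ± 16.1, SD, n = 2). For Stag2 the share was 26.5% and 25.1% (25.8% ± 1.0, SD, n = 2). The share was higher for Stag1 than for Stag2 in both replicates, and the ranges did not overlap. Over every listed transcript that spans the exon, the Stag1 share was 51.4% and 68.5%. The transcripts also differ at their 5′ starts, so these shares are those of whole transcripts and not of junction reads.

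The other genes differed in how many transcripts carried their level. Rad21, Nipbl and Pds5a each had 1 listed transcript. Ctcf-201, the complete coding transcript of Ctcf, held 76.0% and 74.2% of its TPM, beside the retained intron model Ctcf-206 at 12.9% and 6.88% and the processed transcript Ctcf-204 at 10.8% and 16.0%. Smc3-201 held 94.3% and 98.1%. The 17 counts of Ctcfl in each replicate were all given to Ctcfl-202.

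Smc1a moved most by share of TPM, though not by share of expected counts. Smc1a-201, its complete coding transcript, held 59.1% in replicate 1 and 83.0% in replicate 2, at a TPM of 172.7 and 109.8. Smc1a-206, annotated as a target of nonsense-mediated decay, held 28.2% and 2.06%, from 6763 and 285 expected counts. This transcript joins the first exon to the fourth and skips exons of 189 nt (chrX:152022746-152022934) and 113 nt (chrX:152023039-152023151). Its junction is shown because it separates the model from Smc1a-201, which does not hold these 30 bases. The 15 bases in lower case end the first exon at chrX:152016640, and the 15 in capitals begin at chrX:152026238.

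Smc1a-206 junction: gacccaatggctctgGGTGCAGTGGAGTCT

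Counted by complete coding transcripts alone, the excess of Rad21 over Smc1a was 3.21-fold and 3.20-fold (log2 1.68 in each replicate), which passed the limit, against 1.90-fold and 2.65-fold by gene.

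Wapl also moved. Wapl-201 held 45.4% and 32.7% of its TPM, while Wapl-207, an incomplete model of 480 nt, held 13.2% and 39.2% from 260 and 610 expected counts. Complete coding transcripts together held 79.5% and 45.3%. Wapl-201 and Wapl-205 begin an exon at chr14:34694987-34695105 18 nt before Wapl-202 does, and the exon is shown with those 18 bases in capitals (plus strand, GRCm38).

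Wapl exon: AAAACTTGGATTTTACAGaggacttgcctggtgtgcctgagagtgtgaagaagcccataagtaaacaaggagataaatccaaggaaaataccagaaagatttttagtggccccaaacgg

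Complete coding transcripts with the longer exon held 81.6% and 82.6% of their summed TPM (82.1% ± 0.7, SD, n = 2), nearly alike in both replicates. The exon borders are those of GENCODE M21, in which Wapl-202 is 4185 nt long, against 3891 nt in the deposited table. Protein-coding genes with several listed transcripts and a TPM of at least 10 in both replicates came to 5175, of which 6 were among the 10 genes. Of these 6, Smc1a and Wapl had a transcript whose share of TPM moved by at least 20 percentage points between the replicates (26.2 and 26.0 points), a threshold set after values were seen. Of the 5175, 33.3% had such a move, so 2 in 6 does not stand above the background. By shares of expected counts, 1 of the 6 passed, against 21.3%, and it was another gene: Stag1, through Stag1-201 at 36.8% and 14.6%. The largest moves of Smc1a and Wapl were then 14.3 and 11.6 points.

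**Figure D3:**
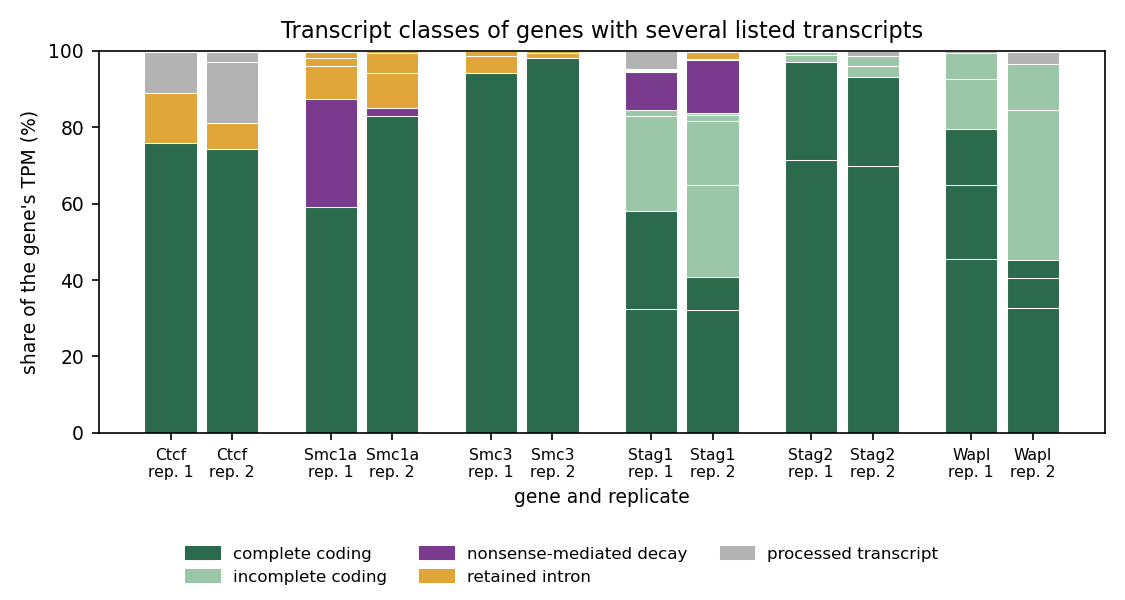
Share of each gene's TPM (y axis, percent) held by each listed transcript in replicates 1 and 2, coloured by annotation class. Complete coding transcripts hold 97.0% and 93.2% for Stag2, 58.2% and 40.8% for Stag1, and 79.5% and 45.3% for Wapl.

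Promoter sequences from RefSeq (GRCm38.p6) were matched for 6 of the 10 genes, Ctcf, Smc1a, Smc3, Stag1, Wapl and Pds5a. The 250 bases before the start held from 16 CpG dinucleotides in Smc1a to 44 in Pds5a, against a median of 6 over 32851 promoters, and from 56.8% to 80.4% GC against a median of 52.4%. A GC box, searched as GGGCGG on both strands, was found in all 6, and 32.7% of all promoters held it. The promoters of Ctcf and of Stag1, the latter with 4 GC boxes, are shown as examples of this base composition, with GC boxes in capitals on the plus strand.

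Ctcf promoter, chr8:105636288-105636537: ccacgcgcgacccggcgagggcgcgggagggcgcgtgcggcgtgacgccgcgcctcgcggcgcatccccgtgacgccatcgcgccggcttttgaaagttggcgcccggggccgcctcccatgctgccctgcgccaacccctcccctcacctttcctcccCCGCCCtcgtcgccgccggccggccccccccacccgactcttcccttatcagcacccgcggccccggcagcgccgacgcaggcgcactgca

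Stag1 promoter, chr9:100643198-100643447: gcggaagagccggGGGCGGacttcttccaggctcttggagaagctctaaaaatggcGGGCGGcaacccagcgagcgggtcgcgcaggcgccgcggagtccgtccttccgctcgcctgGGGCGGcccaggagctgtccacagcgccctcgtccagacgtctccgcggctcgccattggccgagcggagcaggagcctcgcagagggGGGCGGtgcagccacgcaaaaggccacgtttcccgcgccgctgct

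The other motifs, also searched on both strands, were the CCAAT box (CCAAT, in 3 of the 6 and 33.8% of all promoters), a GATA motif (GATAA, in 2 of the 6 and 22.6%), an ETS core (CGGAAG, in 4 of the 6 and 13.6%) and an E box (CANNTG, in 2 of the 6 and 66.2%). A CTCF core motif, a pattern of fixed and free bases, was in 0 of the 6 and in 2.07% of all promoters. Starts are those of RefSeq, and those of Stag1 and Pds5a lie inside their GENCODE genes. These matches describe letters in the window and not bound sites.

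The other cohesin regulators were expressed as well, with 10 of 10 at a TPM of at least 1 in both replicates and a median of the mean TPM of 30.8. The separase inhibitor securin, from Pttg1, was highest at 97.2 and 106.3. Separase itself, from Espl1, had a TPM of 33.2 and 55.4. The acetyltransferase genes differed, with Esco2, the S-phase enzyme, at 70.6 and 30.6 and Esco1 at 25.5 and 11.5. The deacetylase gene Hdac8, which recycles SMC3, was lowest at 9.40 and 8.97. Sororin, from Cdca5, which protects acetylated cohesin from WAPL, had a TPM of 30.97 and 42.94.

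Cohesin subunits of meiosis were near 0. Rec8, the meiotic kleisin gene, had a TPM of 0.84 and 1.72 from 57 and 110 expected counts. Smc1b had 1 and 0 counts, Stag3 had 3 and 7, and Rad21l had 0 in both. Germ-line genes in general were at or near 0 beside Ctcfl: 2 of 15 reached a TPM of 1 in both replicates, 4 were at 0 in both, and the sum was 30.5 and 16.9. Most of that sum was Brdt, a testis bromodomain gene, at 24.07 and 12.71. Prdm9, which sets meiotic recombination sites, was the other at 3.71 and 2.66.

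Condensin compacts mitotic chromosomes, and SMC5/6 acts in DNA repair. All 8 condensin subunit genes and all 8 genes of the SMC5/6 complex reached a TPM of 1 in both replicates, with medians of the mean TPM of 70.9 and 33.8. Ncapd2 of condensin had 167.0 and 308.4, and Nsmce4a of SMC5/6 had 141.0 and 96.8, the highest of their lists by mean. The lowest by mean were Ncapd3 of condensin, at 25.6 and 20.1, and Nsmce3 of SMC5/6, at 5.95 and 7.23, which lay below every value of the 9 expressed genes. Of 18 partners of CTCF and looping factors, all 18 reached that level. The RNA helicase gene Ddx5 had a TPM of 779.1 and 561.9. Ldb1, whose protein joins the globin locus control region to its genes, had 342.7 and 483.4, and Yy1 had 67.7 and 51.2.

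**Figure D4:**
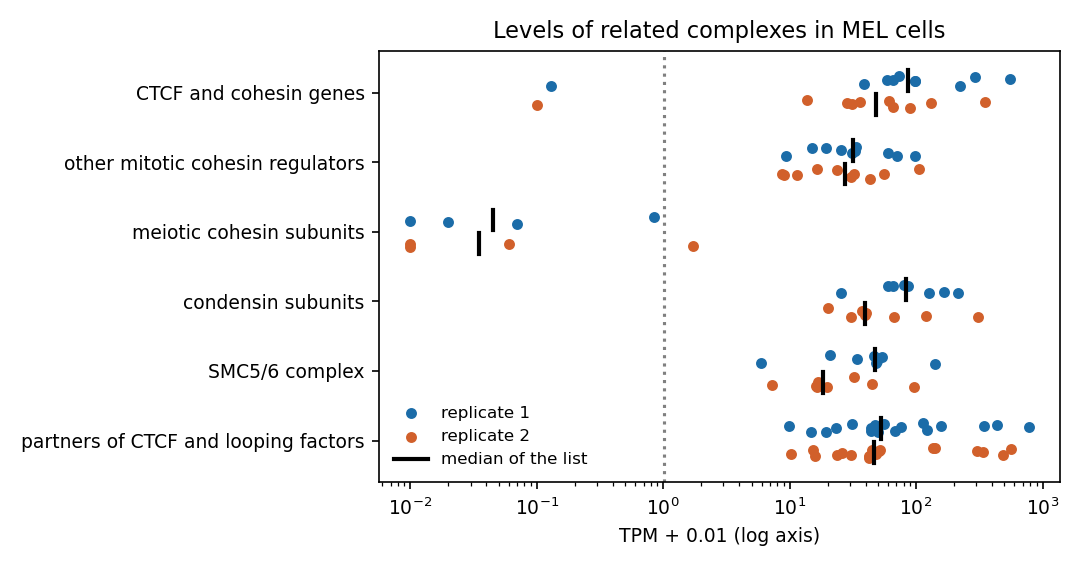
TPM plus 0.01 (log axis) of every gene in 6 lists, in replicate 1 (blue) and replicate 2 (orange), with list medians as black bars and a dotted line at a TPM of 1. The meiotic cohesin genes lie far below the other lists, whose members run from 5.95 upward except for Ctcfl.

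All 10 genes were lower in replicate 2 than in replicate 1 by TMM-scaled expected counts, whereas 48.6% of 15251 tested genes (summed count of at least 20) were lower by any amount. A difference of at least 2-fold was reached by 6 of the 10, all lower in replicate 2, against 11.9% of tested genes 2-fold lower and 8.55% 2-fold higher. The median log2 ratio of replicate 2 over replicate 1 was -1.07 over the 10 genes and 0.03 over all tested genes. Scaling by library totals moved the median of all genes to 0.14. By TPM, 5 of the 10 were at least 2-fold lower, against 10.9% of tested genes. The 5 were not a subset of the 6: Smc1a was 1.83-fold lower by counts and 2.21-fold lower by TPM, and Stag1 was 2.19-fold and 1.87-fold lower. Wapl was 2.33-fold lower by counts and 1.62-fold lower by TPM, its effective length as estimated by the authors being 4389 nt in replicate 1 and 3025 nt in replicate 2.

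Stag2 differed most, at a log2 ratio of -1.55 (2.93-fold), from 10177 and 4410 expected counts. Smc3 followed at -1.25, Wapl at -1.22, Nipbl at -1.20, Stag1 at -1.13 and Pds5a at -1.01, the last just past the limit. Smc1a at -0.87, Rad21 at -0.65 and Ctcf at -0.59 stayed within 2-fold by counts. For these 9 genes the counting interval of the ratio was narrow, from -1.60 to -1.50 for Stag2, and lay below 0. That of Ctcfl, at -0.33, ran from -1.40 to 0.72 and held 0. Each side of the ratio is 1 library, so the values describe these libraries.

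The difference moved with base composition. By counts, the 6 genes past 2-fold were those with a GC content under 45%, from 38.9% in Stag2 to 42.6% in Wapl, and the other 4 had 46.4% to 52.9%. By TPM the split was not complete, since Smc1a (47.2% GC) was past 2-fold and Wapl and Stag1 (41.3% GC) were not. Among 3305 tested genes under 45% GC, the median log2 ratio was -0.87, and 38.8% were at least 2-fold lower in replicate 2. It was -0.29 for 4045 genes from 45% to 50% and 0.53 for 7752 genes at 50% or more. With the trend on GC content removed over all genes, 0 of the 10 remained past 2-fold, against 8.60% of genes in either direction and 4.36% lower. The median over all genes was then 0.04, and 9 of the 10 stayed below 0. The share of all genes below 0 was not counted after the removal. In the lists of related genes, those below 0 were 1 of 10 other cohesin regulators, 5 of 8 condensin genes and 3 of 8 SMC5/6 genes. Of the partners of CTCF and looping factors, 11 of 18 were below 0. The values of the 10 genes then ran from -0.65 in Ctcfl and -0.54 in Ctcf to 0.01 in Pds5a, with Stag2 at -0.29.

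**Figure D5:**
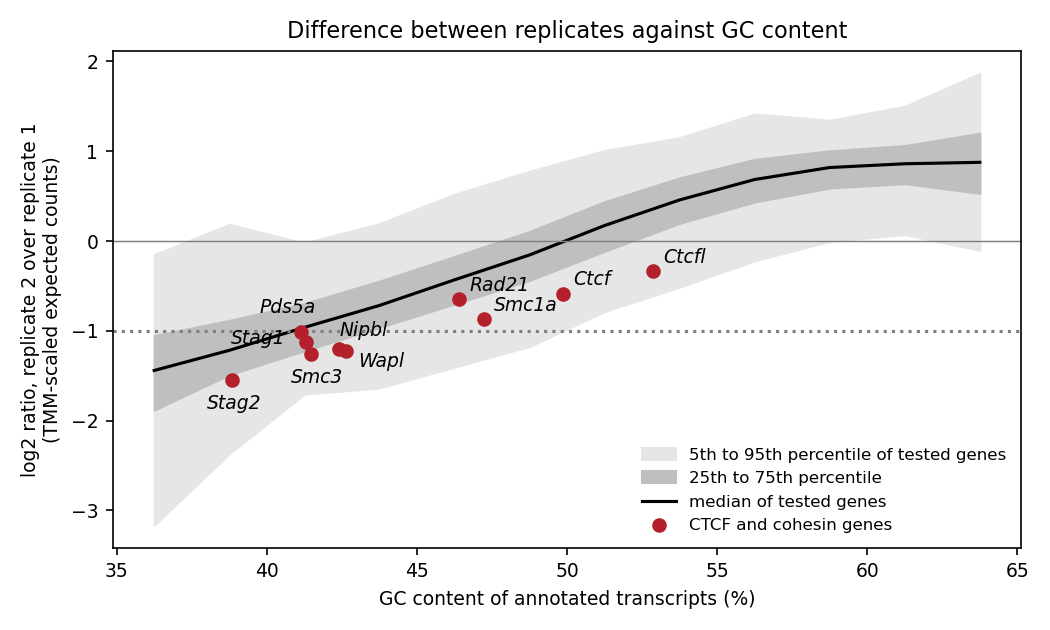
Log2 ratio of replicate 2 over replicate 1 (y axis, TMM-scaled expected counts) against GC content of annotated transcripts (x axis, percent), with the median and percentile bands of tested genes in bins of 2.5% GC and the 10 genes in red; the dotted line marks 2-fold. The 6 genes past 2-fold have 38.9% to 42.6% GC, and their GC bins have medians below 0.

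In the 4 lists of related genes, 20 of 21 tested genes under 45% GC were lower in replicate 2, the exception being Nsmce3 (44.7% GC, 0.29), against 10 of 23 genes with more GC. Over all tested genes, the upper quartile of the log2 ratio was -1.05 to -0.45 in the GC bins from 35% to 45%. Most genes of low GC were thus lower in replicate 2, inside these lists or not. At least 2-fold lower were 12 of the 21, against 38.8% of all tested genes under 45% GC. Others moved little, such as Vezf1 (43.5% GC, -0.28). At least 2-fold lower in replicate 2 were Esco1 (-1.43), Esco2 (-1.19) and Sgo2a (-1.14) of 10 other cohesin regulators, Ncapg (-1.70), Smc4 (-1.60) and Smc2 (-1.48) of 8 condensin genes, and Smc6 (-1.65), Smc5 (-1.56) and Slf1 (-1.19) of 8 SMC5/6 genes. Of 18 partners of CTCF, Top2b (-1.59), Top2a (-1.10) and Smchd1 (-1.08) were lower, and Maz, at 63.3% GC, was 2-fold higher (1.10). After removal of the GC trend, 0 genes of these 4 lists were past 2-fold in either direction, against 8.60% of all genes. The erythroid markers lay the other way, with a median log2 ratio of 0.71, 4 of 14 at least 2-fold higher and 1 lower, and 0 past 2-fold after the removal. Their median was then 0.31, with 4 of 14 below 0, against a median of -0.30 over the 10 genes. The part of erythroid maturation in the difference was not tested.

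Several of the genes overlap others on the opposite strand, and the use of strand in the counting is not given in the sources used here. Ctcf overlaps Agrp, at a TPM of 0.52 and 0.47, and Gm5914, at 3.90 and 5.52. Pds5a overlaps Gm42727 and Gm42729, for which no values were available. Ctcfl overlaps Ctcflos, at 0 in both, and Stag2 overlaps Gm37564, at 0 and 0.18. The posterior SD of the count ran from 0 to 3.73 over the 10 genes. It describes the uncertainty of the estimated count, and reads shared with other genes were not counted.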

How the data were processed

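MEL cell polyadenylated RNA from 2 replicates was analysed from the authors' files, aligned to mm10 and quantified with GENCODE M4 per the text files that accompany the samples; which quantifier was run, and whether it used strand, is not given in the sources used here. Expected counts, as deposited, estimate the reads of a gene or transcript. The authors' TPM corrects for effective length and sums to a fixed total, and the authors' FPKM, as deposited, corrects for effective length and for the number of fragments. Deposited score columns hold the posterior SD of the count and lengths.

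Symbols, positions and transcript types came from GENCODE M21 (same build) by unversioned identifier, for 42462 of 43346 genes and 101510 of 103639 transcripts; 884 genes had no symbol. The 26345 features that are not genes (0.0574% and 0.131% of expected counts, 2.93% and 6.24% of TPM) were left out, and TPM was kept as deposited, so these features lower the TPM of genes more in replicate 2. Expected counts were rounded and scaled by TMM (edgeR 4.0.16, R 4.3.3; prior count 0.5; summed count of at least 20), and called at 2-fold with no p. Ratios used log2(TPM + 0.1). GC trends were lowess curves (fraction 0.3, statsmodels 0.14.6), with GC known for 99.0% of tested genes. DESeq2 1.42.0 gave alternative size factors. Intervals cover counting error only. The 2-fold calls and the removal of a linear GC trend were tested on simulated counts that held counting error only. The ratios between genes, the spread limit and the transcript shares were not tested in this way.

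The genes, lists and pairs were chosen with earlier results of these data known. Named genes are the 10 genes, any gene of the pathway lists, both genes of each pair and the 3 highest and 3 lowest of each marker list; genes overlapping the 10 were added by position. The germ-line list was treated as a marker list. Alternatives were other units, pseudocounts, scalings, filters, transcript sets and each replicate left out.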

Additional observations from a re-analysis of the deposited data

How the results depend on the processing

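Over 30 results and 217 alternatives, most values kept their direction. With 2 replicates, leaving 1 out shifts a mean by less than the SD whatever the data, so those alternatives could not test its size. The mean TPM of Smc3 (156.2) became 89.6 or 222.7, and the log2 ratio of Nipbl over Mau2 (1.17) became 0.24 or 2.11. The log2 ratio of Stag1 to Stag2 (0.89) became 0.33 over expected counts and reversed to -0.068 over complete coding transcripts, a set chosen after seeing the data; leaving out a replicate gave 0.59 to 1.19. The count of genes at least 2-fold different between replicates (6) became 0 with the GC trend removed and 3 with the length trend removed, and was 5 by TPM, DESeq2 size factors or library totals. Over expected counts, which are not corrected for length, Nipbl over Wapl reversed to 0.42 and Pds5a over Pds5b to -0.48. Over complete coding transcripts, Pds5a over Wapl reversed to 0.15 and Nipbl over Wapl moved to -0.11. The median TPM ran from 48.4 to 85.7 when a replicate was left out. Of 13 pairs, 5 to 7 passed the replicate spread under the alternatives (6 as reported). No paired analysis was possible because there is 1 group only. Depth limits Ctcfl alone of the 10, at 17 counts.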
